A study of Mus musculus with 7 samples.

Results

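A set of 9 known or candidate marker genes of mature oligodendrocyte states was followed in primary mouse oligodendroglia that either carried or lacked Klf13, a transcription factor of the Krüppel-like family. They were Klk6, Il33, Apod, Ptgds, Car2, Ppp1r14a, Hopx, Anxa5 and Qdpr. The list was drawn up by name, and some of its genes were chosen by their steep fall in the log2 fold change between these same knockout and control libraries, without a record of which ones. Their knockout values are therefore given as a description, without a test. All 9 had an identifier among the 49315 gene identifiers counted, and all 9 were among the 18352 genes that passed the filter on low counts.

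The RNA-seq data came from 4 control libraries (genotype Klf13-wt) and 3 knockout libraries (genotype Klf13-ko). Cells were obtained from the brains of newborn pups of both sexes by shake-off of mixed glial cultures and depletion of microglia, and every culture then spent 6 days in differentiation-inducing SATO medium. The sources used here describe no deletion limited to a cell type, so other cell types left in the knockout cultures came from deficient pups as well. The sources used here do not give the number of pups behind a culture, so p-values measure the spread between these cultures only.

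The libraries held 24507471 to 59596479 counts on genes, and in 4 of them, namely the control libraries 1 and 4 and the knockout libraries 1 and 3, over 10% of counts lay on 3 genes that collect ribosomal RNA reads (Gm42418, Gm23935, Lars2). Levels are given as normalized counts, which are counts scaled by the effective library size to the mean library, with the mean ± SD over 4 control and 3 knockout libraries. Klf13 itself, on the same scale, had 11340 ± 645 normalized counts in the control and 880 ± 79.8 in the knockout. All 12 myelin genes on a list of defining markers were counted in every group, with 1130360 to 1291280 summed normalized counts per control library and 323505 to 371634 per knockout library, so oligodendrocyte transcripts were present under both genotypes.

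Oligodendrocytes pass from precursors through a newly formed stage to myelinating cells, and mature cells are further split into states that differ in the genes they add to the common myelin program. Klk6, Il33, Apod, Ptgds, Car2, Anxa5, Hopx, Ppp1r14a and Qdpr are among the genes reported from such states, and several are made by other cell types as well. Krüppel-like factors are zinc finger proteins that bind CACCC boxes and GC boxes, while SOX10 and MYRF are the main activators of the differentiation program.

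Because most of the 9 genes were lower together in the knockout, their promoters were read from RefSeq (GRCm38.p6), as windows from 250 bases before to 50 bases after each transcript start. The 11 windows used here cover 8 of the 9 genes, all but Car2. The letters searched, on both strands, were CACCC (the CACCC box), GGGCGG (the GC box), ACAAAG and AACAAT (motifs of SOX proteins), and CTGGCAC and CTGGTAC (MYRF motifs). Shown first are the 3 genes with the lowest knockout levels relative to control, at chr7:29289070-29289339 on the plus strand, chr7:43824294-43824563 on the plus strand and chr19:29924863-29925132 on the plus strand, followed by Hopx at chr5:77115104-77115373 on the minus strand, the only one of the 9 that was higher in the knockout. Each run of 270 bases is the first window of its gene, written 5′ to 3′ and ending 20 bases after the start, with capitals for motif matches.
Ppp1r14a: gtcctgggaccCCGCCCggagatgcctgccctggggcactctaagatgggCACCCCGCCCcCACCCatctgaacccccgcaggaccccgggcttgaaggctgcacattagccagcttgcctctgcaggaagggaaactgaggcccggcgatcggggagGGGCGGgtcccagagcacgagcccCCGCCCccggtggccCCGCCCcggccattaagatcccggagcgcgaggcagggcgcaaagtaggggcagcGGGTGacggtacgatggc
Klk6: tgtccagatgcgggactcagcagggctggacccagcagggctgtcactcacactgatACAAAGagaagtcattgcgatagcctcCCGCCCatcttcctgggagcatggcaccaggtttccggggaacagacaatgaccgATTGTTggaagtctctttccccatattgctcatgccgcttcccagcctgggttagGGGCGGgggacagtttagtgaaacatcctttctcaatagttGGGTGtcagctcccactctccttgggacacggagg
Il33: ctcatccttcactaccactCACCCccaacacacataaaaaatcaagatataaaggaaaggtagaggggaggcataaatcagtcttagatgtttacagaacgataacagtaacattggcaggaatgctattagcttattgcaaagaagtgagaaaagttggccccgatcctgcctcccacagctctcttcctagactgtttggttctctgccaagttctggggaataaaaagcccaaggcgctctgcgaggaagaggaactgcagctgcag
Hopx: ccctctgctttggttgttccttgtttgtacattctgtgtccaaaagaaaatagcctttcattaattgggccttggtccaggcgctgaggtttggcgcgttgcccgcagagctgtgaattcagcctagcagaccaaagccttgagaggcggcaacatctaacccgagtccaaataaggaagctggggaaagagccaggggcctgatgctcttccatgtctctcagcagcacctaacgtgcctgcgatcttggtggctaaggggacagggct

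The Ppp1r14a window held 3 CACCC and 5 GGGCGG matches, of which 1 pair overlapped. The Klk6 window held 2 CACCC, 2 GGGCGG, 1 ACAAAG and 1 AACAAT match, one of the CACCC matches lying past the stretch shown. Il33 had 1 CACCC match, and the first Hopx window had no match at all. Among the other first windows, Ptgds had 2 CACCC matches, Anxa5 and Qdpr 1 each and Apod none. CACCC was thus present in the first window of 6 of the 8 genes, against 57.5% of 32851 RefSeq windows of the same length, and GGGCGG in 3 of 8, against 35.7%. ACAAAG was in the first window of 3 of the 8 (Klk6, Apod and Ptgds), against 18.7% of all windows, and AACAAT in that of 2 (Klk6 and Apod), against 10.7%. The MYRF letters, held by 5.01% (CTGGCAC) and 2.24% (CTGGTAC), were in none of the 11 windows. These are matches of letters only, and binding was not measured here.

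Of the 9 genes, 8 were lower in every knockout library than in any control library and 1, Hopx, was higher in every knockout library. Among all tested genes, 18.0% were lower without overlap and 18.3% higher without overlap. A log2 fold change of -1 or lower was found for 8 of the 9 genes and for 4.47% of all tested genes. The median log2 fold change of the 9 genes was -2.83, and that of all tested genes -0.0037. Since the choice of some genes used this contrast, neither the count nor the median carries weight as evidence. The data are from bulk cultures, in which fewer cells of a state and less RNA per cell cannot be told apart.

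**Figure D1:**
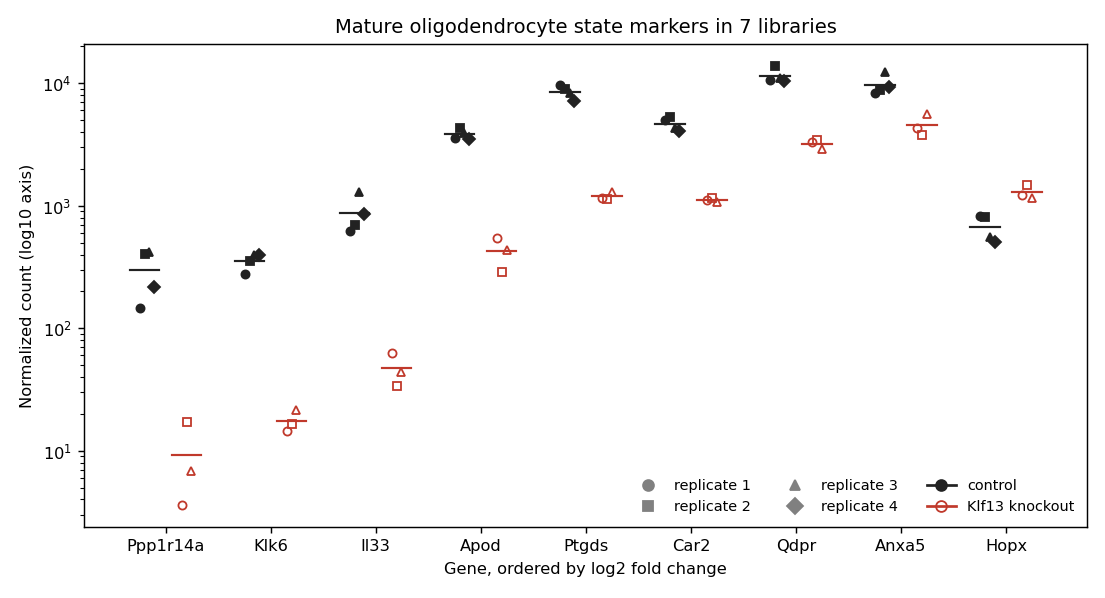
Normalized counts (log10 axis) of the 9 genes in 4 control (filled) and 3 Klf13 knockout (open) libraries, with a symbol for each replicate number and a line at the group mean. For 8 genes all knockout points lie below all control points, and for Hopx they lie above them.

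Klk6 and Il33 encode secreted or released proteins and were at 4.90% and 5.42% of the control level in the knockout. Klk6, a secreted serine protease of the kallikrein family at chr7:43824499-43832030, had 278, 354, 393 and 398 normalized counts in control replicates 1 to 4 and 14.4, 16.5 and 21.3 in knockout replicates 1 to 3. The groups were far apart, with the lowest control library 13.0 times the highest knockout library. The means were 356 ± 55.4 and 17.4 ± 3.53, a log2 fold change of -4.31 (SE 0.22). The knockout values rest on 8, 24 and 28 counts.

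Il33, a cytokine of the interleukin 1 family that is stored in the nucleus and released from damaged cells, lies at chr19:29925114-29960718. It had 622, 697, 1289 and 864 normalized counts in the control libraries and 63.2, 33.7 and 44.2 in the knockout libraries. Control replicate 3 stood above the other controls, yet the lowest control was still 9.85 times the highest knockout library. The means were 868 ± 298 and 47.0 ± 14.96, a log2 fold change of -4.25 (SE 0.35).

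Related genes of Klk6 and Il33 were put on lists of their own. These lists, like all others used here, were drawn up with earlier results of this contrast known, so the tests on their genes are not independent evidence of a direction. Here and for the lists that follow, a gene passed when its adjusted p in edgeR's quasi-likelihood test was at most 0.05 after Benjamini-Hochberg adjustment over 18352 genes, and 12.2% of all tested genes passed as lower and 11.6% as higher. Of 14 listed kallikreins and protease-activated receptors, 5 were counted well enough to be tested, 3 passed as lower and 0 as higher, and the median was -1.36. Those 3 were Klk8 (log2 fold change -1.46, SE 0.41, adjusted p = 0.0399), Klk9 (-1.68, SE 0.41, adjusted p = 0.0256) and Klk10 (-1.36, SE 0.40, adjusted p = 0.0466). Their levels were low, at 140 ± 68.6, 22.02 ± 3.83 and 29.7 ± 5.85 normalized counts in the control. Klk9 and Klk10 lost the call with the replicate number as a block (adjusted p = 0.0649 and 0.0636).

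Each of these 3 calls hung on single libraries. Klk8 failed without control replicate 3 or 4 or any knockout replicate (adjusted p 0.0695 to 0.132), Klk9 without control replicate 4 or knockout replicate 3 (0.0620 to 0.0777) and Klk10 without control replicate 1, 2 or 4 or any knockout replicate (0.0742 to 0.101). F2rl1, a protease-activated receptor, missed the threshold at -1.11 (SE 0.34, adjusted p = 0.0520) but passed in 3 of 16 alternative settings, among them DESeq2 (0.0298), which called 4 genes of this list lower, and the thrombin receptor F2r was at -0.09 (SE 0.13, adjusted p = 0.676).

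On the interleukin 33 side, 7 of 8 listed receptor and signalling genes were tested, 3 passed as lower and 0 as higher, with a median of -0.61. Il1rap, the co-receptor that interleukin 33 shares with interleukin 1, fell from 6689 ± 583 to 1910 ± 294 normalized counts (log2 fold change -1.81, SE 0.12, adjusted p = 0.000139). It was lower in 3 of 3 knockout libraries, and its adjusted p stayed between 1.42e-40 and 0.00156 over 16 alternative settings. The signalling genes Irak4 (-0.61, SE 0.17, adjusted p = 0.0372) and Traf6 (-0.34, SE 0.08, adjusted p = 0.0198) passed with smaller differences. Irak4 lost its call without control replicate 1, 3 or 4 or knockout replicate 1 or 2 (adjusted p 0.0508 to 0.143), and Traf6 without control replicate 4 or knockout replicate 2 or 3 (0.0535 to 0.0602). The interleukin 33 receptor Il1rl1 itself was at a low level, with 14.04 normalized counts on average in the control and 7.37 in the knockout. Irak1 was at -0.16 (SE 0.06, adjusted p = 0.0877).

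Apod and Ptgds encode lipocalins, small secreted proteins with a pocket for lipids. Apod, apolipoprotein D, is at chr16:31296192-31314808 and had 3574, 4325, 3905 and 3494 normalized counts in the control libraries against 547, 288 and 436 in the knockout libraries. The controls were tight and the knockout libraries more spread, with the highest 1.90 times the lowest. The means of 3824 ± 378 and 424 ± 130 gave a log2 fold change of -3.19 (SE 0.22).

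Ptgds, the synthase that converts prostaglandin H2 to prostaglandin D2, is at chr2:25466709-25470046. Its control libraries had 9639, 8952, 8409 and 7165 normalized counts and its knockout libraries 1157, 1143 and 1305. Both groups were compact, and the lowest control was 5.49 times the highest knockout library. The means were 8542 ± 1046 and 1202 ± 89.5, a log2 fold change of -2.83 (SE 0.12).

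On the list of related lipocalins and lipid carriers, no gene passed as lower. Of 12 listed lipocalin and apolipoprotein genes, 6 were tested, 0 passed as lower and 1 as higher, with a median of -0.14 that turned to 0.25 without control replicate 3, 0.047 without control replicate 4 and 0.15 with the replicate block. By unadjusted p of at most 0.05 and by DESeq2 and limma voom the count of lower genes was also 0. The gene that passed was Clu, the secreted chaperone clusterin, which rose from 5187 ± 340 to 8278 ± 175 normalized counts (log2 fold change 0.67, SE 0.06, adjusted p = 0.000572). It was higher in 3 of 3 knockout libraries. Apoe, the main lipid carrier of glia, was at -0.32 (SE 0.63, adjusted p = 0.763) and turned to 0.60 without control replicate 3. Bsg, which binds apolipoprotein D at the cell surface, was at -0.12 (SE 0.08, adjusted p = 0.361).

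Among genes of prostaglandin synthesis and reception, 17 of 19 were tested, 2 passed as lower and 0 as higher, and the median was -0.46. It ran from -0.79 without knockout replicate 3 to -0.042 without control replicate 3, and it was 0.061 without control replicates 3 and 4. DESeq2 called 3 lower and limma voom 1, and 0 were called lower without knockout replicate 1 or 2. Ptgs2, the inducible cyclooxygenase that supplies prostaglandin H2, fell from 410 ± 301 to 42.4 ± 26.1 normalized counts (log2 fold change -3.26, SE 0.78, adjusted p = 0.0240). Ptgis, the prostacyclin synthase, fell from 113 ± 68.8 to 16.3 ± 7.69 (-2.74, SE 0.61, adjusted p = 0.0176). Control replicates 3 and 4 carried most of both, with 676 and 667 normalized counts of Ptgs2 against 158 and 141 in control replicates 1 and 2. The same libraries were highest for the summed list of leptomeningeal, fibroblast and mural cell genes, and without them Ptgs2 was at -1.80 (adjusted p = 0.0609) and Ptgis at -1.71 (adjusted p = 0.0497). Ptgs2 also lost its call without control replicate 4 or knockout replicate 1 or 2 (adjusted p 0.0527 to 0.0904), and Ptgis without knockout replicate 1 or 2 (0.0673 to 0.0760). Ptges3 (-0.04, SE 0.05), Ptgr2 (0.16, SE 0.09) and Hpgd (-1.07, SE 0.53), which make or break down prostaglandins, did not pass (adjusted p = 0.616, 0.271 and 0.191). The prostaglandin D2 receptor Ptgdr was at 0 in all 7 libraries, which allows up to 3 counts in each.

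**Figure D2:**
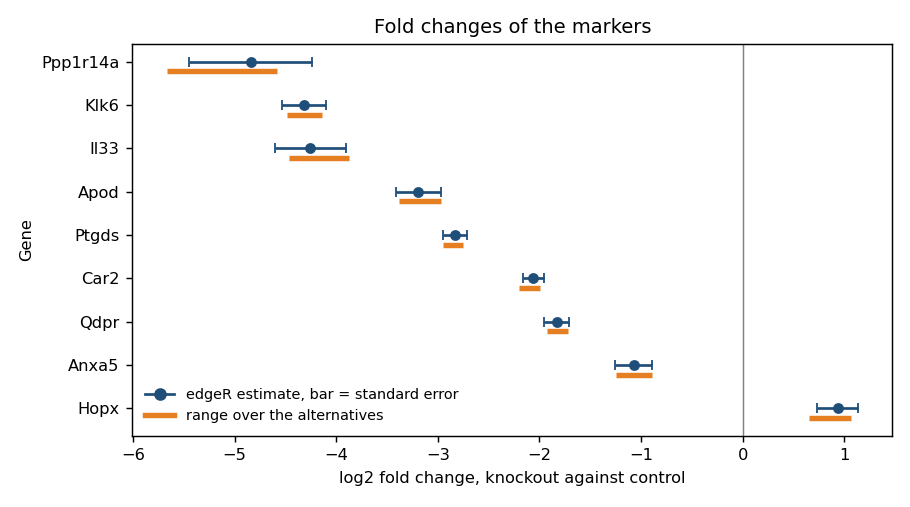
Log2 fold change of the 9 genes in the knockout against the control, with a bar for the standard error and, below each, the range over the alternative settings. The estimates run from -4.84 for Ppp1r14a to 0.94 for Hopx, and no range reaches 0.

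Car2 and Qdpr, both cytosolic enzymes, moved by nearly the same amount. Car2, the carbonic anhydrase used as a classical oligodendrocyte marker, is at chr3:14886273-14900770. It had 5020, 5277, 4298 and 4100 normalized counts in the control libraries and 1121, 1157 and 1081 in the knockout libraries. The knockout libraries differed by a factor of only 1.07, and the lowest control was 3.54 times the highest of them. The means of 4674 ± 564 and 1120 ± 37.7 gave a log2 fold change of -2.06 (SE 0.10).

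Qdpr, which regenerates the cofactor tetrahydrobiopterin, is at chr5:45434021-45450236. It had 10560, 13870, 10960 and 10360 normalized counts in the control libraries and 3306, 3427 and 2930 in the knockout libraries. Control replicate 2 was the highest, and the lowest control was 3.02 times the highest knockout library. The means were 11440 ± 1640 and 3221 ± 259, a log2 fold change of -1.83 (SE 0.12). Exons of an antisense gene, Gm42413, overlap those of Qdpr by 332 bases, but it had at most 1 count in any library.

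Carbonic anhydrases and bicarbonate transporters went both ways. Of 20 listed, 17 were tested, 3 passed as lower and 5 as higher, and the median was 0.54. Without knockout replicate 2 the higher count was 3 and the median 0.29, and without control replicates 3 and 4 the higher count was 3. Car14, a membrane-bound carbonic anhydrase, fell from 722 ± 112 to 128 ± 23.9 normalized counts (log2 fold change -2.51, SE 0.18, adjusted p = 0.000197), in 3 of 3 knockout libraries. Car6, the secreted form, was at -1.49 (SE 0.30, adjusted p = 0.0121) and the anion exchanger Slc4a2 at -0.55 (SE 0.12, adjusted p = 0.0193).

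In the other direction, Car8, a member of the family without enzyme activity, rose from 366 ± 30.2 to 737 ± 61.0 normalized counts (1.01, SE 0.10, adjusted p = 0.000829). Car3 rose from a low level of 12.1 ± 1.46 to 33.5 ± 10.4 (1.47, SE 0.29, adjusted p = 0.0115). Slc4a4, a sodium bicarbonate cotransporter that is also on the astrocyte list, was at 1.06 (SE 0.28, adjusted p = 0.0343), and Slc4a7 at -0.11 (SE 0.07, adjusted p = 0.274) did not pass. Calls were lost for Slc4a4 without control replicate 3 or any knockout replicate (adjusted p 0.0659 to 0.106), for Slc4a2 without knockout replicate 1 or 3 (0.0559 to 0.0619) and for Car6 without knockout replicate 2 (0.0524). Car1 was at 0 in all libraries.

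Of 18 listed genes of tetrahydrobiopterin and folate metabolism, 16 were tested, 2 passed as lower and 2 as higher, and the median was near 0 (-0.053, and -0.084 to 0.052 when 1 library was left out). Nos1, the neuronal nitric oxide synthase that uses tetrahydrobiopterin, rose from 36.9 ± 19.8 to 223 ± 37.9 normalized counts (log2 fold change 2.61, SE 0.39, adjusted p = 0.00441), and 10 of 12 genes on the neuron list passed as higher as well. Their part in the Nos1 difference was not tested. Pts, an enzyme of tetrahydrobiopterin synthesis, was at 0.34 (SE 0.07, adjusted p = 0.0124) and Shmt2, of folate metabolism in mitochondria, at -0.26 (SE 0.07, adjusted p = 0.0274). Pts lost its call without knockout replicate 1 (adjusted p = 0.0575) and Shmt2 without control replicate 1, 2 or 3 or knockout replicate 1 or 3 (0.0510 to 0.0991). Mthfd1, another enzyme of folate metabolism, did not pass (-0.09, SE 0.09, adjusted p = 0.505).

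Ppp1r14a, an inhibitor of myosin light chain phosphatase also known as CPI-17, had the lowest knockout level relative to control. It lies at chr7:29289308-29293801 and had 146, 406, 420 and 216 normalized counts in the control libraries and 3.61, 17.2 and 6.85 in the knockout libraries. Even the lowest control was 8.49 times the highest knockout library. The means were 297 ± 137 and 9.22 ± 7.09, a log2 fold change of -4.84 (SE 0.60), with 3 of 18352 tested genes lower. The knockout values rest on 2, 25 and 9 counts, so the size is poorly fixed, and without knockout replicate 2 it was -5.67. Control replicates 1 and 4 and knockout replicates 1 and 3, the libraries with the larger share of ribosomal RNA reads, were the lower ones of their groups. Within those 4 libraries the log2 ratio was -5.11, and within the other 3 it was -4.59.

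Most listed genes of the myosin phosphatase system did not pass. Of 20 listed genes, 19 were tested, 2 passed as lower and 1 as higher, with a median of -0.17 that was -0.046 without control replicate 3. DESeq2 called 4 lower, and 1 was called lower without knockout replicate 1 or 2. The kinase Rock1, which also inhibits the phosphatase, fell from 5200 ± 260 to 3670 ± 293 normalized counts (log2 fold change -0.50, SE 0.07, adjusted p = 0.00390). The targeting subunit Ppp1r12b rose from 3156 ± 272 to 4872 ± 407 (0.63, SE 0.09, adjusted p = 0.00350), in 3 of 3 knockout libraries. Its relative Ppp1r12a was at -0.24 (SE 0.05, adjusted p = 0.0134), a call lost without knockout replicate 1 or 2 (0.0555 to 0.0740). The abundant genes Ppp1cb (-0.13, SE 0.07) and Ppp1ca (0.01, SE 0.06), both catalytic subunits, and Rhoa (-0.25, SE 0.08), the GTPase that activates Rock1, did not pass (adjusted p = 0.229, 0.935 and 0.0638). Rhoa passed without control replicate 2 (adjusted p = 0.0381) and by DESeq2 (0.0298).

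Anxa5, a calcium-dependent protein that binds phosphatidylserine on membranes, showed the smallest decrease. At chr3:36448923-36475894, it had 8261, 8744, 12260 and 9394 normalized counts in the control libraries and 4313, 3809 and 5661 in the knockout libraries. Replicate 3 was the highest of both groups, and the lowest control was 1.46 times the highest knockout library. The means of 9664 ± 1791 and 4595 ± 957 gave a log2 fold change of -1.07 (SE 0.18).

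Among the annexins listed beside Anxa5, none passed. Of 11 listed, 8 were tested with 0 lower and 0 higher, and the median was -0.22. Without adjustment 2 had a p of at most 0.05 and were lower, DESeq2 also called 2 as lower, and limma voom called 0. The median hung on single libraries, at 0.031 without control replicate 3, -0.63 without knockout replicate 3 and 0.11 without control replicates 3 and 4. Anxa1 was the closest to passing, at -2.15 (SE 0.72, adjusted p = 0.0683). Anxa2 was at -0.94 (SE 0.33, adjusted p = 0.0764) and passed with the replicate number as a block (-0.82, adjusted p = 0.0174). Anxa6 was at -0.05 (SE 0.24, adjusted p = 0.907) and Anxa3 at -0.18 (SE 0.36, adjusted p = 0.772). Both turned positive under some settings, Anxa6 to 0.20 without control replicate 4 and Anxa3 to 0.23 without control replicate 3.

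Hopx went against the other 8 genes. It encodes a small homeodomain protein that does not bind DNA itself and acts through partners such as SRF and HDAC2, and it is known from neural stem cells and astrocytes as well as from mature oligodendrocytes. At chr5:77086988-77115121, it had 830, 807, 556 and 502 normalized counts in the control libraries and 1226, 1484 and 1153 in the knockout libraries. The lowest knockout library was 1.39 times the highest control library. The means were 674 ± 169 and 1288 ± 174, a log2 fold change of 0.94 (SE 0.20) or 1.91-fold. An antisense gene, Hopxos, overlaps its exons by 412 bases and had 1 to 12 counts per library.

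Of 7 listed partners of Hopx, 6 were tested, 1 passed as lower and 2 as higher, and the median was 0.13. The histone deacetylase Hdac2 (log2 fold change 0.24, SE 0.06, adjusted p = 0.0227) and the chromatin gene Epc1 (0.24, SE 0.07, adjusted p = 0.0452) were slightly higher. The transcription factor Gata6 passed as lower (adjusted p = 0.0291) at the edge of detection, with 13.1 ± 7.53 normalized counts in the control and 2.05 ± 0.24 in the knockout. Srf did not pass (-0.16, SE 0.15, adjusted p = 0.495). With the replicate number as a block, Epc1 (adjusted p = 0.102) and Gata6 (0.0631) lost the call. Leaving out 1 library ended it for Hdac2 without knockout replicate 1 or 2 (0.0603 to 0.0849), for Epc1 without any library but control replicate 1 (0.0671 to 0.126) and for Gata6 without any knockout replicate (0.0854 to 0.104).

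To compare levels between genes, counts were also divided by exon length and given as RPKM. In the control the order of mean levels was Qdpr with 146 ± 20.9 RPKM, Anxa5 with 124 ± 22.9, Ptgds with 118 ± 14.4, Car2 with 43.9 ± 5.30, Apod with 33.8 ± 3.34, Hopx with 10.1 ± 2.54, Il33 with 6.85 ± 2.35, Klk6 with 5.35 ± 0.83 and Ppp1r14a with 4.94 ± 2.28. The libraries of Qdpr and Anxa5, of Anxa5 and Ptgds, and of each neighbouring pair from Hopx down to Ppp1r14a overlapped, so their places were not distinct. In the knockout, Anxa5 led with 58.8 ± 12.3 RPKM, ahead of Qdpr with 41.0 ± 3.30. Hopx with 19.3 ± 2.61 RPKM came next, its libraries overlapping those of Ptgds with 16.6 ± 1.23. Car2 followed with 10.5 ± 0.35 and Apod with 3.74 ± 1.15, and Il33, Klk6 and Ppp1r14a were last with 0.37 ± 0.12, 0.26 ± 0.05 and 0.15 ± 0.12 RPKM. The 3 genes with the lowest control levels, Il33, Klk6 and Ppp1r14a, were thus also those with the largest decreases, and Hopx moved from place 6 to place 3.

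**Figure D3:**
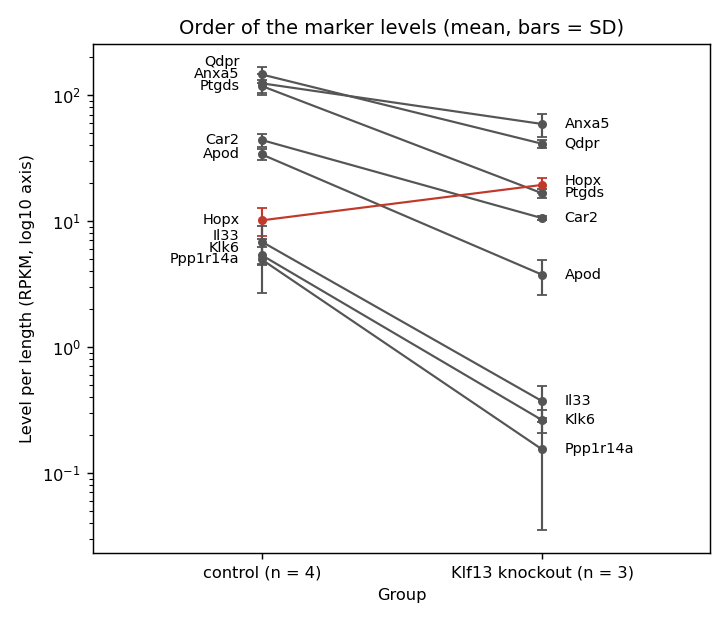
Mean level per exon length (RPKM, log10 axis, bars for the SD) of the 9 genes in control (n = 4) and Klf13 knockout (n = 3) libraries, with a line for each gene. Hopx, in red, crosses the lines of Ptgds, Car2 and Apod, and Il33, Klk6 and Ppp1r14a end below 1 RPKM.

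Within both classes of libraries, those with the larger and those with the smaller share of ribosomal RNA reads, all 9 genes had the direction they had over all 7. The log2 ratio of the means was -4.24 and -4.50 for Klk6, -3.79 and -4.88 for Il33, -2.85 and -3.84 for Apod, -2.77 and -2.93 for Ptgds and -0.82 and -1.46 for Anxa5. The second class held 1 knockout library, replicate 2, so that this library and the class cannot be told apart.

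Transcripts of other cell types were present in the cultures and differed between libraries. For the leptomeningeal, fibroblast and mural cell genes (13 of 16 tested, 4 lower, 0 higher) the median log2 fold change was -2.04, against -2.06 for Car2, and 12 of the 13 were below 0. An unadjusted p of at most 0.05 was reached by 10, all lower, and DESeq2 called 10 lower, limma voom 2 and the fit with the replicate block 7. The summed level was 18713 to 79133 normalized counts per control library, highest in replicates 3 and 4, and 8279 to 19251 per knockout library. The leading genes of this list, Fn1, Col1a1 and Col1a2, had 13050 ± 7455, 12590 ± 9360 and 9070 ± 7346 normalized counts in the control and 4117 ± 1706, 2562 ± 1319 and 1455 ± 868 in the knockout. They did not pass (adjusted p = 0.0570, 0.0565 and 0.0546) but did so without control replicate 2 (0.0275 to 0.0294), under the replicate block (0.00553 to 0.0109) and by DESeq2 (0.00167 to 0.00755). Without control replicates 3 and 4 their log2 fold changes went from -1.66, -2.30 and -2.64 to -0.69, -0.89 and -1.01 (adjusted p = 0.248, 0.257 and 0.250). Apod and Ptgds are made by such cells too. Neither gene was highest in control replicate 3 or 4. Without both libraries, the log2 fold change was -3.25 for Apod, -2.95 for Ptgds, -3.88 for Il33 and -0.89 for Anxa5. The part of leptomeningeal and fibroblast cells in these differences was not tested.

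Microglia and macrophage genes summed to 27498 to 32732 normalized counts in 3 control libraries, 120255 in control replicate 3, and 27741 to 57159 in the knockout libraries. None of the 12 passed, none reached an unadjusted p of 0.05, and DESeq2 and limma voom called 0. Il33, Anxa5 and Ppp1r14a were also highest in control replicate 3 among the controls, Ppp1r14a only narrowly (420 against 406 in control replicate 2). The part of microglia in their differences was not tested. Among the most abundant microglia genes, C1qa and C1qb were at -0.41 and -0.32 (SE 0.61 and 0.58) and turned positive without control replicate 3 (0.51 and 0.48).

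Astrocyte genes moved with Hopx. They summed to 108804 to 152711 normalized counts in the control and 213781 to 251000 in the knockout, and 9 of 12 passed as higher. Gfap, the astrocyte filament gene, was at 0.66 (SE 0.16, adjusted p = 0.0240), the water channel Aqp4 at 1.19 (SE 0.30, adjusted p = 0.0288) and the glutamate transporter Slc1a2 at 0.61 (SE 0.14, adjusted p = 0.0212). Slc1a2 missed the threshold with the replicate number as a block (adjusted p = 0.0508). Leaving out 1 library ended the call of Gfap without knockout replicate 2 (0.0880), of Aqp4 without control replicate 3 or any knockout replicate (0.0537 to 0.0914) and of Slc1a2 without knockout replicate 2 or 3 (0.0613 to 0.0694). The neuron list, led by Map2, Elavl3 and Dcx, summed to 40572 to 59705 normalized counts in the control and 80682 to 101524 in the knockout and had 10 of 12 genes higher, with Dcx at 2.43 (SE 0.49, adjusted p = 0.0129), Map2 at 0.73 (SE 0.11, adjusted p = 0.00479) and Elavl3 at -0.46 (SE 0.17, adjusted p = 0.0977, and 0.0394 without knockout replicate 2). The part of these cell types in the Hopx difference was not tested.

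Endothelial genes (4 of 8 tested, 461 to 1132 summed normalized counts in the control and 404 to 567 in the knockout) and choroid plexus and ependymal genes (4 of 6 tested, 428 to 792 and 647 to 1049) were rare. Of the first, Cdh5 passed as lower (adjusted p = 0.0483), a call lost without control replicate 1, 3 or 4 or knockout replicate 1 or 2 (0.0666 to 0.144), and of the second 0 passed, though Folr1 did so without control replicate 4 (1.48, adjusted p = 0.0281). Choroid plexus genes also had 0 at an unadjusted p of 0.05 and 0 by DESeq2 and limma voom.

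**Figure D4:**
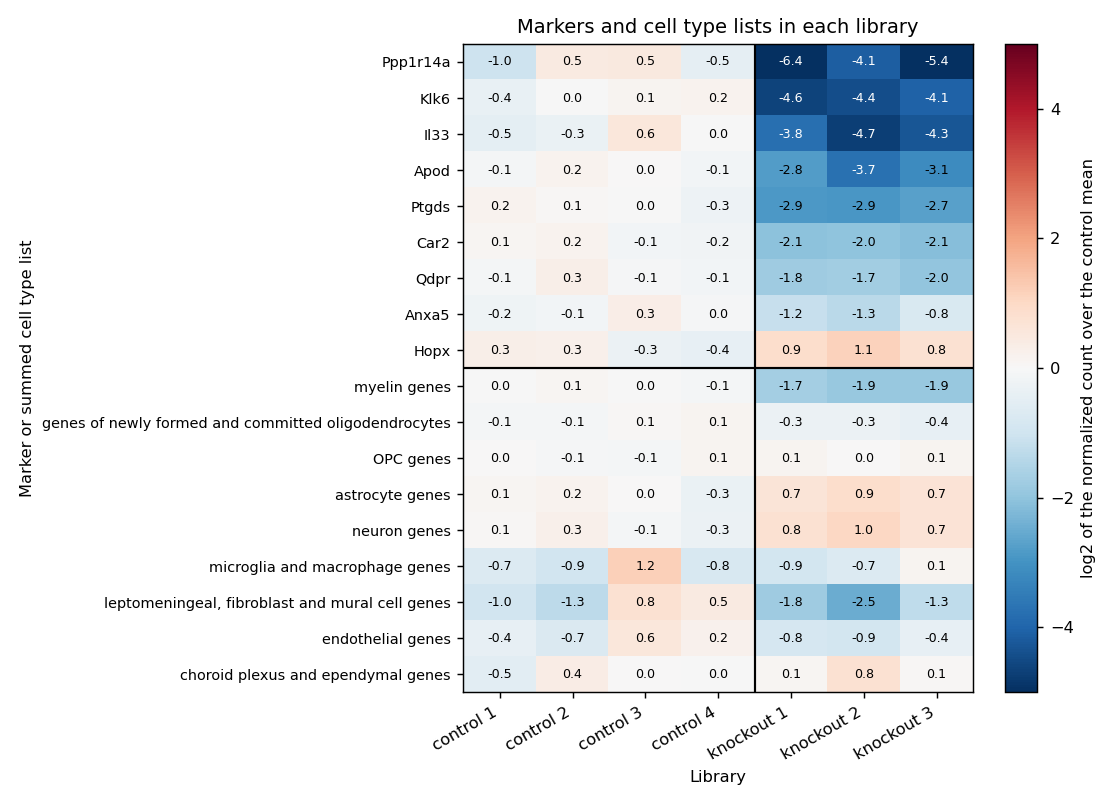
Log2 of the normalized count over the control mean for each of the 9 genes and for the summed level of each cell type list, in 7 libraries. The 8 lower genes and the myelin, newly formed oligodendrocyte, fibroblast and endothelial lists are below the control mean in all 3 knockout columns, and the fibroblast list (-2.49 to -1.27 in the knockout, -1.31 to 0.77 in the control) and the microglia list also vary widely among the control columns.

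Within the oligodendrocyte lineage, all 12 myelin genes were lower in the knockout, with a median of -2.51, which lay between the values for Ptgds and Car2. Among the most abundant were Mbp at -1.78 (SE 0.11, adjusted p = 8.20e-05) and Cnp at -0.96 (SE 0.09, adjusted p = 0.000703). Genes of newly formed and committed oligodendrocytes were split, with 7 of 12 lower, 1 higher and a median of -0.33, led by Bcas1 (-0.37, SE 0.10), Sirt2 (-0.79, SE 0.08) and Gpr17 (0.26, SE 0.08). Sirt2 passed (adjusted p = 0.00096), and Bcas1 passed at an adjusted p of 0.0385 but not with the replicate number as a block (adjusted p = 0.119), and it failed when any library other than control replicate 1 was left out (0.0564 to 0.145). Gpr17 did not pass (adjusted p = 0.0532), but it passed in 5 of 16 alternative settings, among them DESeq2 (0.0260), limma voom (0.0436) and leaving out control replicate 4 (0.0435).

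Of the OPC genes, 0 of 12 were lower and 4 higher, with a median of 0.19. Counts of lower genes were 0 by unadjusted p, DESeq2 and limma voom too. The leading genes were Tnr (-0.11, SE 0.09, adjusted p = 0.448), Pdgfra (0.07, SE 0.06, adjusted p = 0.451) and Ptprz1 (0.33, SE 0.10, adjusted p = 0.0455), the last without a call under the replicate block (adjusted p = 0.101) or without control replicate 2 or 4 or any knockout replicate (0.0614 to 0.123).

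Other genes of mature states were put on a list of their own, and all 30 of them were tested. In the knockout 16 passed as lower and 2 as higher, and the median was -0.82. The study displayed Gjb1 and Pex5l, as well as Klk6 and Ptgds, among its changed genes on these same samples, so they are not independent evidence of the direction. Gjb1, the connexin of the oligodendrocyte gap junction, fell from 2242 ± 369 to 203 ± 50.04 normalized counts (log2 fold change -3.49, SE 0.21, adjusted p = 9.5e-05). Pex5l fell from 4882 ± 650 to 593 ± 6.58 (-3.04, SE 0.11, adjusted p = 1.94e-05).

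Aspa, which splits N-acetylaspartate, fell from 277 ± 63.0 to 31.8 ± 6.87 normalized counts (-3.15, SE 0.25, adjusted p = 0.000306), and Hapln2, a matrix link protein at nodes of Ranvier, from 522 ± 150 to 62.0 ± 6.51 (-3.08, SE 0.25, adjusted p = 0.000349). Adamts4, a secreted metalloprotease and one of the most abundant genes on the list, fell from 14700 ± 1907 to 3766 ± 406 (-1.97, SE 0.12, adjusted p = 0.000109). All 5 were lower in 3 of 3 knockout libraries and passed under all 16 alternatives. The most abundant genes of the list, S100b (-0.54, SE 0.20, adjusted p = 0.0923) and Plekhb1 (-0.35, SE 0.12, adjusted p = 0.0813), did not pass. DESeq2 called both lower (adjusted p = 0.0389 and 0.0466) and 20 of the 30 genes in all, and S100b also passed with the replicate number as a block (-0.35, adjusted p = 0.0204).

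Taking the 9 family and pathway lists as a whole, 101 of 129 genes were tested, 16 passed as lower and 11 as higher, and the median was -0.17. Those shares can be read against 12.2% and 11.6% of all tested genes. The lower count dropped to 9 without control replicate 4 or knockout replicate 3 and to 7 without knockout replicate 1 or 2, and the higher count to 7 without knockout replicate 1 or 2. The difference between these lists and the list of mature states was not tested.

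**Figure D5:**
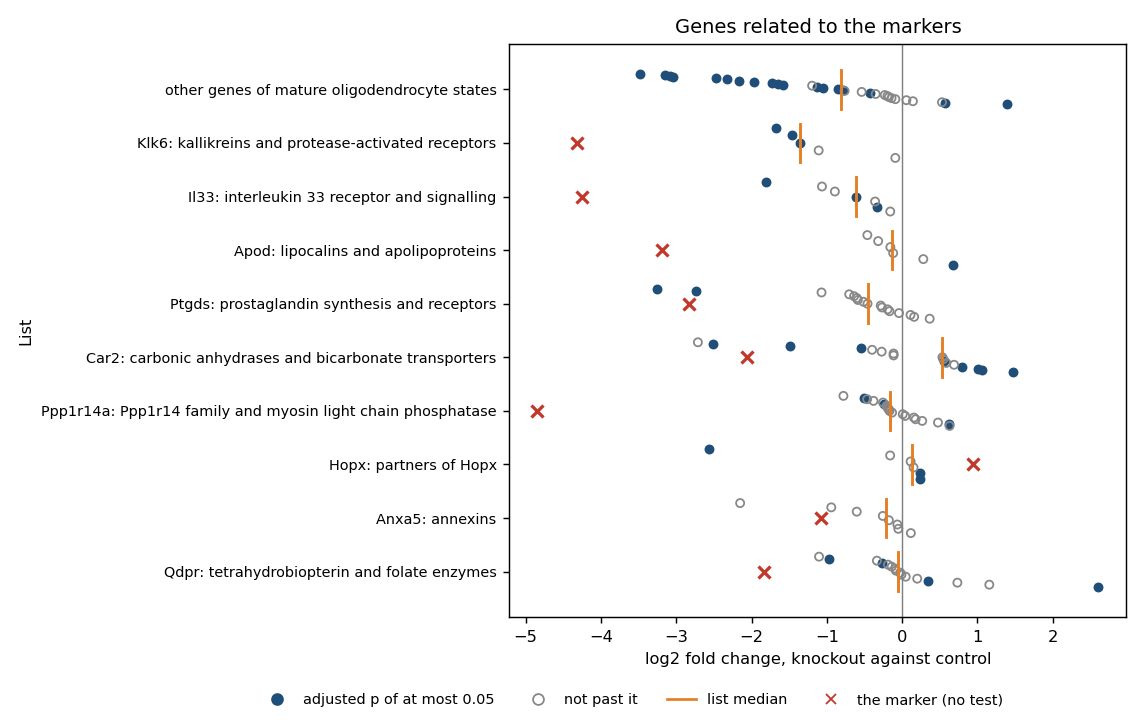
Log2 fold change in the knockout against the control of each tested gene on the list of mature states and on the 9 family and pathway lists, filled where the adjusted p was at most 0.05, with the list median in orange and the marker itself as a red cross. The crosses of Klk6, Il33, Apod, Ptgds, Car2, Ppp1r14a and Qdpr lie to the left of their list medians by at least 1 log2 unit. The cross of Anxa5 lies to the left by less than that, and the cross of Hopx lies to the right. Some markers were chosen by their fall in this contrast, so these distances are a description only.

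The pattern of each gene over the 7 libraries was compared with that of every tested protein-coding gene by the root mean square difference of log2 CPM values centred on the gene mean, a measure in which the knockout difference weighs most. No test applies, since likeness was sought in the same libraries. Car2 and Qdpr were the closest pair among the 9 (0.154), followed by Apod and Ptgds (0.333) and Klk6 and Il33 (0.381). The nearest genes to Ptgds were Cdc42ep2 (0.075) and Tmod1 (0.115), and those to Qdpr were the transcription factor gene Zfp536 (0.0969) and Mbp (0.101). Car2 was nearest to Eml1 (0.108) and Zfp536 (0.122), and Apod to Klhl4 (0.144) and the myelin gene Mog (0.150).

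For the steepest genes the nearest patterns were farther off. Few tested genes differed by as much, since Ppp1r14a, Klk6 and Il33 held places 4, 8 and 9 from the lowest log2 fold change. Klk6 was nearest to Klf13 itself (0.305) and to Syt4 (0.325), Il33 to Syt4 (0.363) and Klk6 (0.381), and Ppp1r14a to Rab44 (0.675) and Klk6 (0.682). Anxa5 was nearest to Steap3 (0.101) and Pkp2 (0.105). Hopx had the closest matches of all 9, Pcdhgc4 (0.0527) and Trim9 (0.0682), both higher in the knockout by 0.97 and 0.86 on the log2 scale. Klk6 and Ppp1r14a lie on chromosome 7, 20.1 Mb and 34.6 Mb from the targeted gene Klf13. The kallikrein genes Klk8, Klk9 and Klk10, which passed as lower, are on chromosome 7 too. Linkage to the targeted locus was not tested for any of them.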

How the data were processed

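RNA was sequenced in 7 libraries of primary mouse oligodendroglia. The deposited files hold raw counts per gene, which the authors made by trimming with Trimmomatic 0.36, mapping with STAR 2.5.2b and counting unique hits in exons with featureCounts of Subread 1.5.2 on GRCm38. The annotation release and the strand setting are not given in the sources used here, so reads of antisense partners cannot be told apart. Symbols were found for 48970 of 49315 identifiers. Coordinates are those of the count files.

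The counts as deposited entered edgeR 4.0.16 in R 4.3.3 (TMM, filterByExpr by group, robust quasi-likelihood test, genotype only), with Benjamini-Hochberg adjustment over 18352 genes and a threshold of 0.05. RPKM values and log2 CPM values (prior count 2) were computed here. The scripts were tested on simulated data. The 9 genes and all lists were chosen with earlier results of these data known, and the study had used DESeq2.

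The text names the 9 genes, in each related list the 3 most abundant genes and up to 4 more with the largest changes past the threshold, in each cell type list the 3 most abundant, for each of the 9 the 2 genes of nearest pattern, genes overlapping their exons, and Klf13. Some genes that this rule selects are not reported here. Further genes, named after their values were seen, are Il1rl1, Ptgdr, Car1 and Anxa1.

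Alternatives were other scalings (DESeq2's size factors, upper quartile, total counts), filters (none, 10 counts in every library), tests (DESeq2 1.42.0, limma 3.58.1 voom), a replicate block and leaving out libraries. Correlations of deviations from the group means, over all tested genes, were 0.11, 0.46 and 0.17 for same-numbered control and knockout libraries. They were -0.53 to 0.20 for the 9 pairs of different number, 3 of which exceeded 0.11. Only the 0.46, for replicates 2, lay above that range, so these values do not settle whether same-numbered libraries are paired. The main fit used the genotype only, and the replicate block was run as an alternative. Any pairing would come from the labels' replicate numbers, and what the libraries share is not stated. No knockout library shares the number of control replicate 4, so the block fit takes no information on the genotype difference from that library. Calls gained or lost under the block can thus also reflect its absence. A count of 0 allows up to 3 counts, a limit of counting error only.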

Additional observations from a re-analysis of the deposited data

Results flagged for a closer look

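Among 95 genes named in the text or listed beside it, 6 had 1 control library far from the other 3 by Dixon's test at the 95% level, which flags about 1 in 20 groups by chance. None of the 9 marker genes was among them. Control replicate 3 stood high for C1qa (21480 normalized counts, others 4595 to 4882) and C1qb (19020, others 4000 to 5364), which mark microglia. The same library was high for Apoe (428400, others 75830 to 122500) and Anxa3 (3102, others 1231 to 1473). Control replicate 4 stood high for Car6 (234.9, others 116.6 to 131.4) and Traf6 (2874, others 2572 to 2603).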

How the results depend on the processing

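For all 9 marker genes the direction was the same under every alternative that gave a value. Their median of -2.83 was -2.05 with at least 10 counts in every library, a filter that removed Klk6 and Ppp1r14a, and -2.89 to -2.75 when 1 library was left out. Of the single values under the alternatives, 140 moved by less than the spread between replicates and 2 by more, Car2 (-2.20 without control replicates 3 and 4) and Ppp1r14a (-5.67 without knockout replicate 2).

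Of the 9 family lists together, 16 genes were lower and 11 higher, with 7 to 17 and 7 to 13 when 1 library was left out and 7 lower without control replicates 3 and 4. Without both of those controls the list medians were -0.77 (kallikreins), -0.30 (interleukin 33 signalling) and 0.58 (lipocalins and apolipoproteins). The interleukin 33 median was -0.35 with at least 10 counts in every library and -0.31 with the replicate block, and the carbonic anhydrase median 0.29 to 0.58 when 1 library was left out. The causes were not tested. The block changed the call of 13 named genes, given beside the results except for Elavl3 (adjusted p = 0.0241), and no other named call. It called 1 kallikrein, 2 annexins and 7 fibroblast genes lower, against 3, 0 and 4 without it. Lower genes were 5 on the newly formed oligodendrocyte list (7 without it) and 18 on the list of other mature states (16). Higher genes were 8 on the astrocyte list (9) and 9 on the neuron list (10), and 2 neuron genes were lower (0).

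Over all tested genes 2246 were lower and 2122 higher. The counts were 1254 and 1209 without knockout replicate 1, 1317 and 850 without knockout replicate 2, and 1489 and 1177 without control replicates 3 and 4. Under some other settings the higher genes were more numerous. There were 1744 lower and 2263 higher with the upper quartile, 1716 and 1870 with total counts, and 1606 and 1695 without control replicate 4. The median of all tested genes moved by less than 0.1 under every scaling.

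Signs turned for 9 named genes, of which only Anxa6 passed in the turned direction (0.39 without control replicates 3 and 4, adjusted p = 0.0266). When 1 library was left out, values ran from -0.61 to 0.51 for C1qa, -0.70 to 0.48 for C1qb, -0.60 to 0.60 for Apoe, -0.44 to 0.23 for Anxa3, -0.77 to 0.20 for Ttr, -0.18 to 0.20 for Anxa6, -0.052 to 0.0025 for Ptges3 and -0.023 to 0.064 for Ppp1ca. Without control replicates 3 and 4 they were 0.49 (C1qa), 0.52 (C1qb), 0.46 (Apoe), 0.31 (Anxa3), 0.42 (Ttr) and 0.018 (F2r). The replicate block gave 0.017 for Ttr and 0.20 for Anxa6, total counts 0.0056 for Anxa6 and 0.0029 for Ptges3, and limma voom 0.0077 for Anxa6 and 0.018 for Apoe. Depth limits Klk6 and Ppp1r14a in the knockout, and only 101 of 129 family genes had enough counts to be tested.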
